A study of Moricandia moricandioides and Moricandia arvensis and Moricandia suffruticosa with 11 samples.

Results

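Glutathione S-transferases join the tripeptide glutathione to reactive compounds, and the transcripts of this enzyme family were followed here in mature leaves of 3 *Moricandia* species. The members were the 57 of 33602 *Arabidopsis thaliana* gene models in the deposited count table whose short description names a glutathione S-transferase, without 2 further loci that the selection left out. They were grouped by the class that the table's annotation names, which gave 27 tau, 13 phi, 3 theta and 2 zeta members, 1 microsomal member, 2 translation elongation factor EF1B proteins with a transferase-like domain, and 9 members with no class named.

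The leaves came from 4 *M. arvensis* plants (line MOR1) and 3 *M. suffruticosa* plants, both C3–C4 intermediate species, and from 4 plants of the C3 species *M. moricandioides*. No mutation or treatment is named for any plant, and each species was represented by a single seed line. The plants grew in a climate chamber with a 12 h day at 23 °C and 20 °C nights, and leaves were taken about 2 h after the light came on, before the transition to reproductive growth. C3–C4 intermediates move photorespiratory glycine into the bundle sheath, where its CO2 is released and fixed again. With a single C3 species, a difference between photosynthesis types and a difference between species cannot be told apart, and in whole leaves fewer cells of a type and less RNA per cell cannot be told apart either.

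In plants, tau and phi transferases conjugate glutathione to herbicides, stress products and secondary metabolites, and conjugates are then moved into the vacuole. The Brassicaceae also use glutathione as the sulfur donor in glucosinolate synthesis, and *A. thaliana* uses it likewise in camalexin synthesis. Several phi and tau members have been placed at these steps in *A. thaliana*. Zeta members take part in tyrosine breakdown, theta members reduce organic peroxides, and the microsomal member belongs to an unrelated family of membrane proteins. Roles given below are those known in *A. thaliana*.

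Each library held 10987959 to 14865167 counted reads. Summed transcripts of 6 mature mesophyll markers, 3 of them listed at 0 in every plant, were 30639 to 43217 rpm in *M. arvensis* and 30732 to 35036 rpm in *M. suffruticosa*, against 38317 to 45574 rpm in *M. moricandioides* (rpm being a locus's reads scaled to the counted reads of its library). Summed guard cell markers (3 genes, none at 0) were 39.0 to 74.3 rpm and 46.8 to 53.4 rpm in the same intermediates, against 30.1 to 38.8 rpm in *M. moricandioides*. The mesophyll sum was thus lower in *M. suffruticosa*, and the guard cell sum higher in both intermediates, without overlap, and their part in the results below was not tested. Single markers did not all follow their sum. By species means, RBCS1A and RCA were lower in *M. suffruticosa* than in *M. moricandioides*, while PSBP1 was higher (8126 against 6888 rpm). FAMA was higher in both intermediates. In *M. arvensis*, *M. suffruticosa* and *M. moricandioides*, MYB60 averaged 20.2, 8.22 and 8.30 rpm and SLAC1 11.4, 22.8 and 15.3 rpm. Flower markers reached 1.49 to 6.33 rpm in *M. arvensis* and at most 1.13 rpm elsewhere, root markers at most 17.6 rpm, and summed vascular markers lay between 148 and 394 rpm. The vascular markers went in both directions. In *M. arvensis*, *M. suffruticosa* and *M. moricandioides*, SUC2 averaged 223, 180 and 155 rpm and APL 22.3, 31.0 and 17.1 rpm. In the same order, XCP1 averaged 2.90, 7.15 and 25.4 rpm and XCP2 5.51, 19.1 and 35.8 rpm. These differences were not tested. *M. arvensis* plants 13 and 15 were much closer to each other than any other pair of that species, with 4.78 as the chi-square per gene against 40.1 or more, and so were *M. suffruticosa* plants 6 and 7, with 8.26 against 35.6 or more. The labels give them as separate plants and they were kept so, although these values do not show whether they are separate plants or repeat libraries. Counts of calls are therefore also given with each pair summed to 1 library.

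Reads were found for 28 of the 57 members, and the other 29 were listed at 0 in all 11 plants. That share of 50.9% at 0 compares with 30.7% of the 27359 other protein coding models. The members at 0 were not scattered: 25 of them lay in 12 groups of neighbouring loci, which held 36 members in all. In 11 of the 12 groups a single locus held every read, and in all 11 it was the locus with the lowest number. GSTU23 held 38547 reads while GSTU22, GSTU21, GSTU20 and GSTU19 had 0, GSTU7 held 21176 while GSTU6 to GSTU1 had 0, and GSTF9 held 87231 while GSTF10 had 0. In the remaining group, GSTU15 and GSTU16 were both at 0. The other 4 members at 0 were GSTF2, GSTF12, GSTF13 and GSTL3, whose neighbour GSTL1 had reads.

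**Figure D1:**
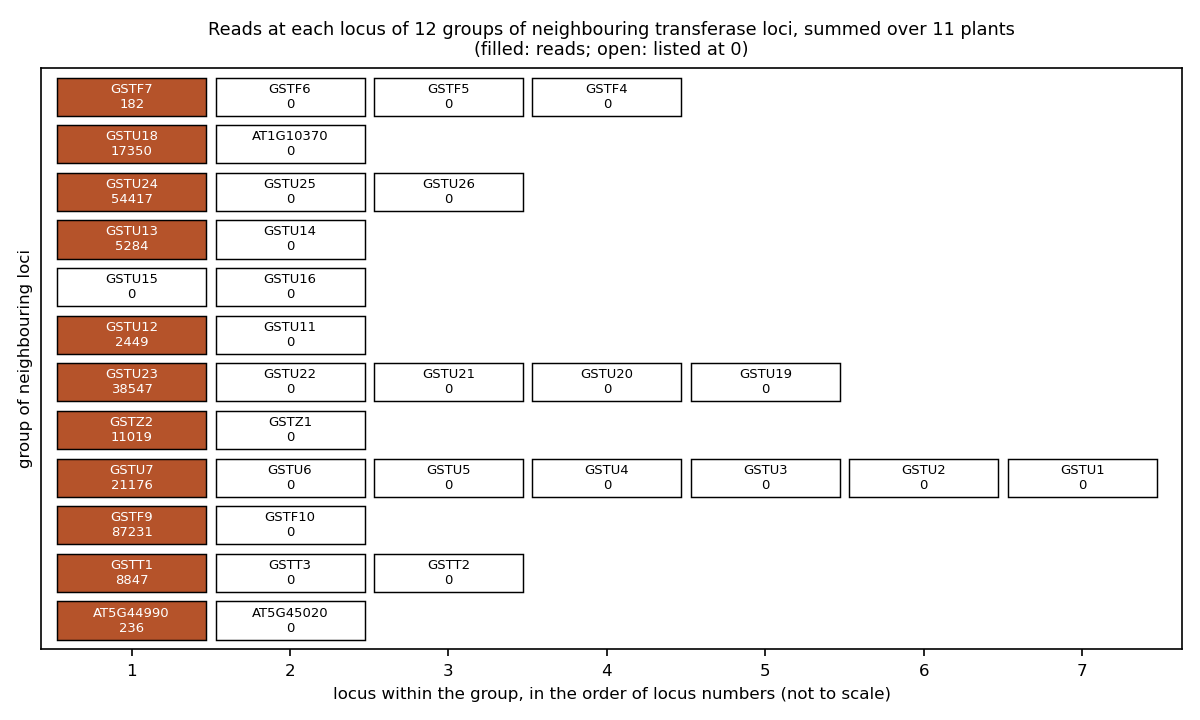
Reads at each locus in the 12 groups of neighbouring transferase loci, summed over the 11 plants, with 1 row per group and loci in the order of their numbers. Filled boxes have reads and open boxes are listed at 0; in 11 rows the box at the left alone is filled.

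The study had mapped translated reads to a reduced set of *A. thaliana* coding sequences, and the sources used here do not give which loci that set held. A locus absent from the set and a locus without transcripts cannot be told apart in the table. Each of the 11 values may therefore stand for its whole group of neighbours rather than for the named gene alone. The same may hold for OPR1, GGT1 and AT5G06950 among the further genes listed below, whose neighbours OPR2, GGT2 and TGA5 were at 0. Among the members with a textbook role that were listed at 0 were GSTF6 of camalexin synthesis, GSTF12 of anthocyanin transport, GSTU20 of aliphatic glucosinolate synthesis, GSTF10 and GSTZ1. The values of GSTF7, GSTU23, GSTF9 and GSTZ2 stand in their groups. Gene lengths were not used here, so rpm values were compared between plants for each member and not between members.

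In *M. suffruticosa* leaves the family had a higher summed rpm than in either of the other species. Its members summed to 4581, 4429 and 4172 rpm in the 3 *M. suffruticosa* plants, against 2864, 2397, 3028 and 3042 rpm in the *M. arvensis* plants and 2461, 2181, 2797 and 2052 rpm in the *M. moricandioides* plants. *M. suffruticosa* did not overlap with the others, while *M. arvensis* and *M. moricandioides* overlapped. The *M. suffruticosa* mean of 4394 ± 207 rpm (SD, n = 3) was 1.85 times that of *M. moricandioides*, 2373 ± 331 rpm (SD, n = 4), and the *M. arvensis* mean of 2833 ± 301 rpm (SD, n = 4) was 1.19 times it. GSTF9 alone averaged 1193 rpm in *M. suffruticosa* and 348 rpm in *M. moricandioides*. Of the 28 members with reads, 18 had a positive and 10 a negative log2 fold change in *M. suffruticosa* over *M. moricandioides*. Sums were described and not tested.

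The phi class differed most in its sum. It reached 1719, 1600.0 and 1594 rpm in *M. suffruticosa*, against 462 to 766 rpm in *M. moricandioides*, 2.75 times the mean, whereas the *M. arvensis* plants held 601 to 804 rpm. GSTF9 alone supplied 72.9% of the phi reads in *M. suffruticosa*, 58.7% in *M. arvensis* and 58.0% in *M. moricandioides*. The tau class summed to 1672 to 1749 rpm in *M. suffruticosa*, 794 to 1441 rpm in *M. arvensis* and 893 to 1346 rpm in *M. moricandioides*, so only *M. suffruticosa* stood apart. Zeta transcripts, all counted at GSTZ2, averaged 99.4 ± 10.7 rpm in *M. arvensis*, 91.7 ± 26.1 rpm in *M. suffruticosa* and 44.4 ± 17.6 rpm in *M. moricandioides*. The members without a class summed to 414 ± 52.9, 562 ± 94.2 and 263 ± 42.2 rpm in the same order of species. In rpm, which is scaled to counted reads alone, both intermediates lay above every *M. moricandioides* plant. The EF1B pair did not separate the species, at 328 ± 67.7, 294 ± 46.3 and 289.8 ± 61.9 rpm.

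**Figure D2:**
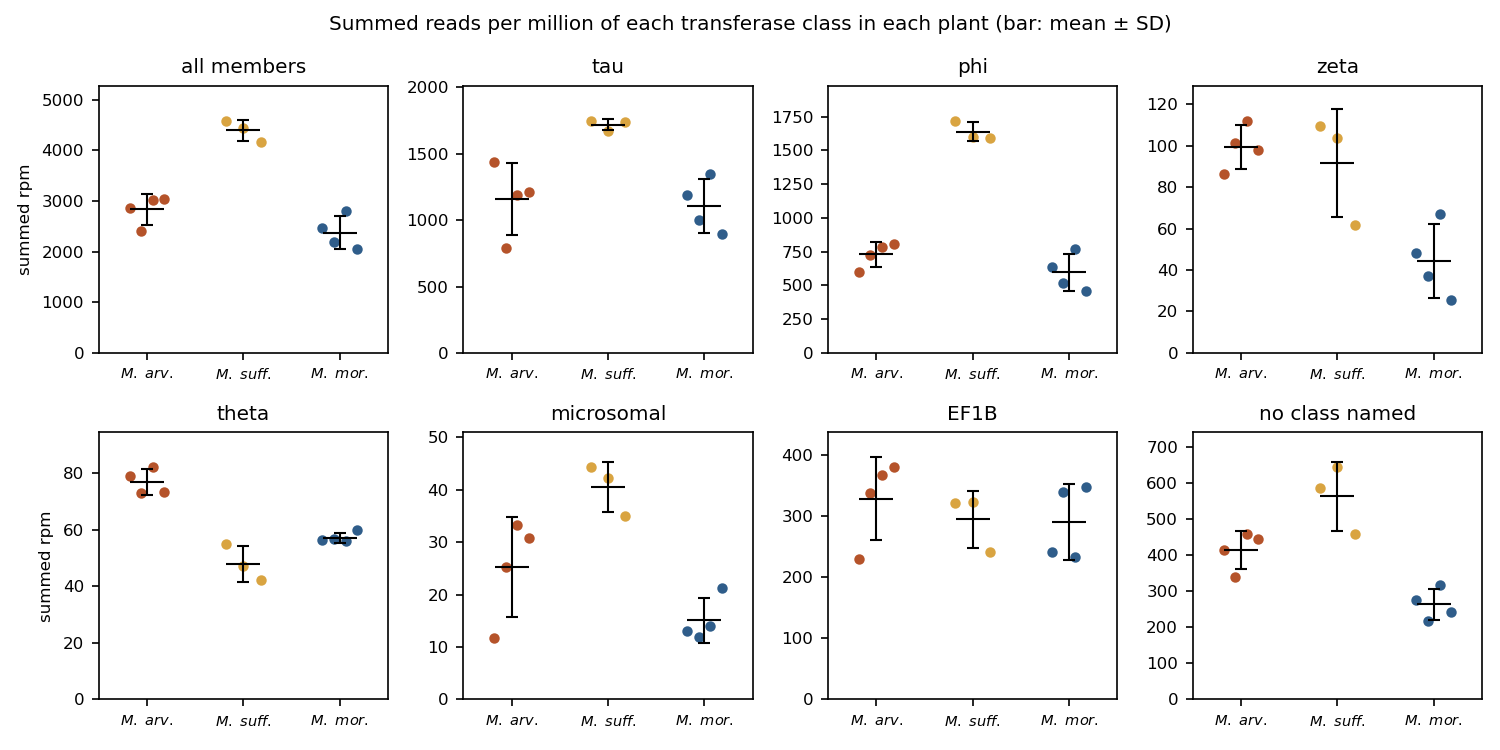
Summed rpm of each class in each plant, in 8 panels on a linear axis from 0, with the mean and SD of each species as black bars. *M. suffruticosa* lies above the other species in the panels for all members, tau and phi, while the EF1B panel shows all 3 species overlapping.

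To find which transcripts differed, every species was compared in a single fit over the 11 libraries with edgeR's quasi-likelihood test, and a member was called at an adjusted p of 0.01 or less over the 15570 transcripts tested. All 28 members with reads were tested. In *M. arvensis* against *M. moricandioides*, 9 of 28 (32.1%) were called, 4 higher and 5 lower, and over all transcripts 35.0% were called, 18.2% higher and 16.7% lower. In *M. suffruticosa* against *M. moricandioides*, 8 of 28 (28.6%) were called, 7 higher and 1 lower, against 18.9% of all transcripts, of which 10.1% were higher and 8.82% lower. These comparisons share the *M. moricandioides* plants. In *M. arvensis* against *M. suffruticosa*, 6 of 28 (21.4%) were called, 1 higher and 5 lower, beside 19.3% of all transcripts, 9.40% higher and 9.92% lower. The median log2 fold change of the 28 members was 0.13, 0.40 and -0.35 in the 3 comparisons, against 0.02, 0.01 and 0.01 for all transcripts. With each close pair of plants summed to 1 library, the calls were 5, 3 and 1 of 28, where 25.1%, 9.01% and 6.51% of all transcripts were called. They were GSTU13, AT1G77290, GSTF11, AT4G19880 and AT5G44990 in *M. arvensis* and GSTF9, AT4G19880 and GSTU9 in *M. suffruticosa* against *M. moricandioides*, and GSTF9 between the intermediates. Without *M. arvensis* plant 13 there were 5 calls in the comparison of *M. arvensis* with *M. moricandioides* (28.8% of all transcripts). Without *M. suffruticosa* plant 6 or 7 there were 5 and 4 in that of *M. suffruticosa* with *M. moricandioides* (10.5% and 10.3% of all transcripts).

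**Figure D3:**
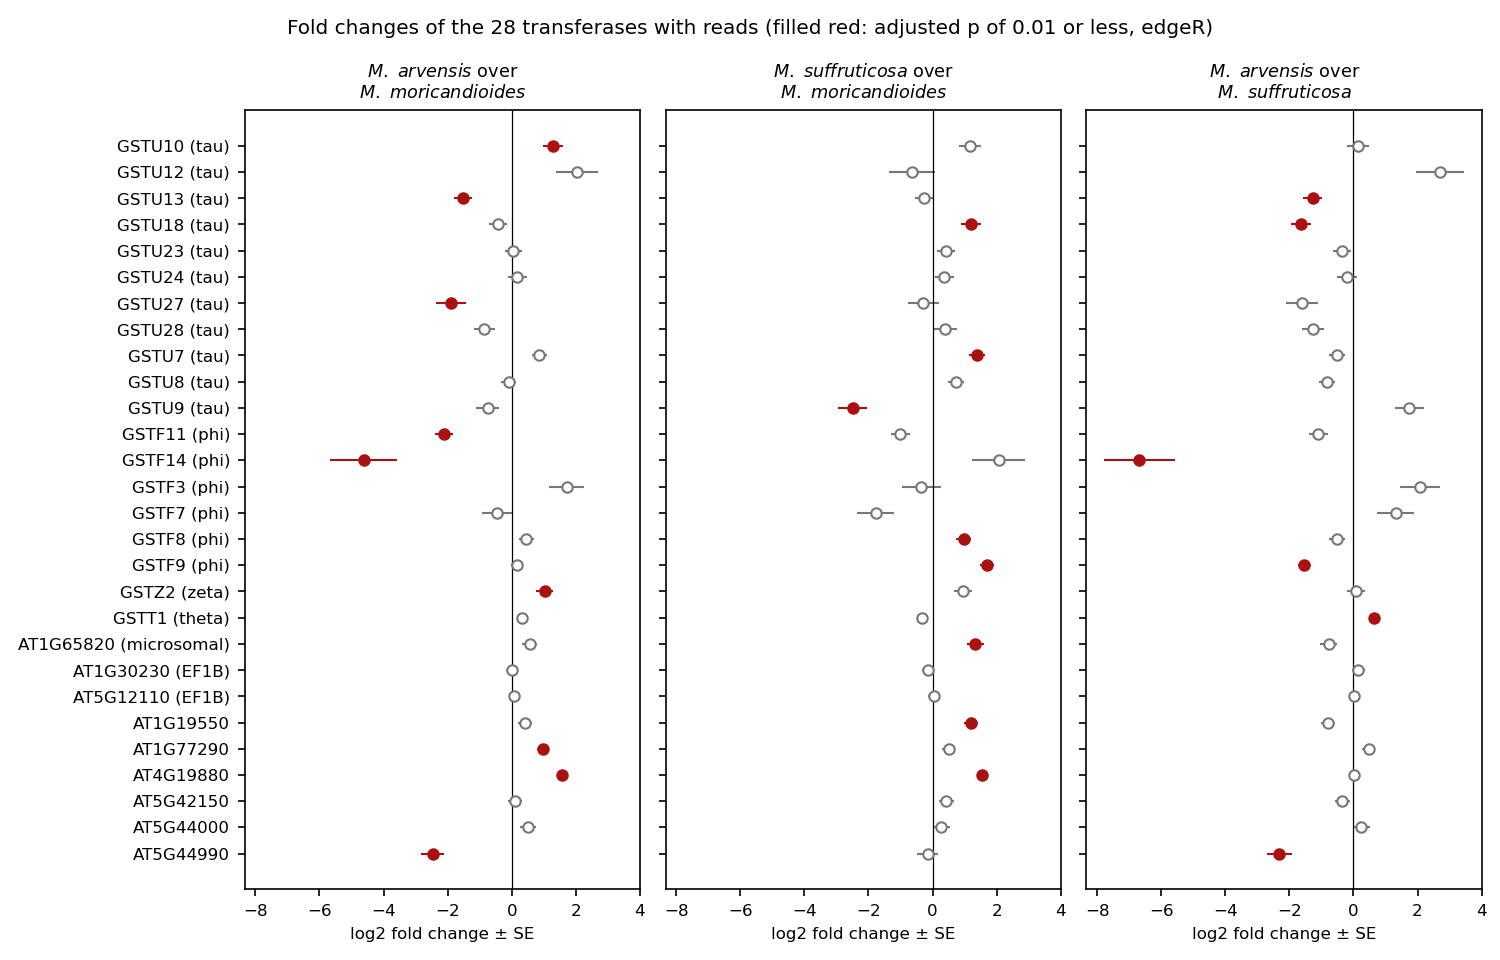
Log2 fold change of each of the 28 members with reads, with its standard error, in 3 panels for the 3 comparisons. Filled red points are called at an adjusted p of 0.01 or less; 9, 8 and 6 points are filled from left to right, and AT4G19880 is filled to the right of 0 in both comparisons with *M. moricandioides*.

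Among the phi members, GSTF9 was higher in *M. suffruticosa* than in each of the other species. This enzyme and its neighbour GSTF10 have been linked to indole glucosinolate synthesis. GSTF9 had 1227, 1163 and 1188 rpm in the *M. suffruticosa* plants, against 375, 295, 466 and 256 rpm in *M. moricandioides*. The *M. arvensis* plants had 313, 404, 489 and 523 rpm, within and just above the *M. moricandioides* range. All 3 *M. suffruticosa* plants lay above all 8 others. The log2 fold change was 1.70 ± 0.21 (SE) over *M. moricandioides*, an edgeR adjusted p of 0.000123, and *M. arvensis* was lower than *M. suffruticosa* by -1.54 ± 0.21, adjusted p 0.000238. Both calls held in all 11 fits that each left out 1 plant and with the close pairs summed. In *M. arvensis* against *M. moricandioides* the difference was 0.16 ± 0.19, adjusted p 0.511.

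GSTF11, which has been placed at the glutathione step of aliphatic glucosinolate synthesis, was lower in *M. arvensis*. Its transcripts reached 8.61, 25.2, 12.7 and 11.8 rpm in *M. arvensis*, against 68.3, 56.2, 64.3 and 41.2 rpm in *M. moricandioides*, with no overlap. The *M. suffruticosa* plants had 33.8, 33.6 and 23.0 rpm, below every *M. moricandioides* plant. The log2 fold change in *M. arvensis* was -2.11 ± 0.28, adjusted p 9.73e-05, and the call held whichever single plant was left out. That in *M. suffruticosa* was -1.01 ± 0.30, adjusted p 0.021, and was not called.

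GSTF14 had the largest fold changes of the family and the widest spread. It had 1.49, 0.267, 0.671 and 0.431 rpm in the *M. arvensis* plants, which are 19, 3, 9 and 5 reads. The *M. suffruticosa* plants had 108, 91.1 and 28.1 rpm. Among the *M. moricandioides* plants, 3 had 31.5, 19.7 and 15.9 rpm, while plant 8 had 0.0816 rpm, a single read. *M. arvensis* and *M. suffruticosa* did not overlap, and *M. arvensis* overlapped with *M. moricandioides* through that plant. *M. arvensis* was lower than *M. suffruticosa* by -6.68 ± 1.09, adjusted p 0.000798, called whichever single plant was left out, though not with the close pairs summed (0.0109) or by limma-voom (0.0449). Against *M. moricandioides* it was lower by -4.62 ± 1.04, adjusted p 0.00304. That call was lost without *M. arvensis* plant 12, 13 or 15 (adjusted p 0.0112, 0.0108 and 0.0108), with the close pairs summed (0.0144) and by limma-voom (0.264). Without *M. moricandioides* plant 8 the log2 fold change was -5.06, adjusted p 7.99e-05.

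GSTF8, a stress-induced enzyme found in the cytosol and plastid, had 342, 304 and 341 rpm in *M. suffruticosa*, against 144, 158, 209 and 127 rpm in *M. moricandioides*. The *M. arvensis* plants, with 271, 258, 205 and 203 rpm, reached into the *M. moricandioides* range. The *M. suffruticosa* difference of 0.97 ± 0.24 was called at an adjusted p of 0.00971, close to the threshold. It was called in 2 of the 11 fits with 1 plant left out, those without *M. moricandioides* plant 12 or *M. arvensis* plant 9, and its adjusted p reached 0.034 in the others. GSTF3 and GSTF7 were not called in any comparison.

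The tau class held calls in both directions. GSTU13, which in *A. thaliana* acts in the indole glucosinolate pathway of pathogen defence, had 13.1, 13.5, 24.0 and 23.1 rpm in *M. arvensis*, against 37.0, 61.7, 46.1 and 47.3 rpm in *M. moricandioides*. The *M. suffruticosa* plants split into 54.9 and 53.2 rpm in plants 6 and 7 and 19.7 rpm in plant 8. *M. arvensis* lay below every *M. moricandioides* plant, by -1.53 ± 0.28, adjusted p 0.000772, and this call held whichever single plant was left out. Against *M. suffruticosa* it was lower by -1.27 ± 0.29, adjusted p 0.00597, with plant 8 inside the *M. arvensis* range. That call held in 5 of 11 fits with 1 plant left out: it was lost without any of the 4 *M. arvensis* plants and without *M. suffruticosa* plant 6 or 7, with adjusted p up to 0.0333.

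GSTU27 had 7.67, 5.17, 4.25 and 2.50 rpm in *M. arvensis*, against 16.8, 17.5, 23.3 and 12.2 rpm in *M. moricandioides*, with no overlap. In *M. suffruticosa*, plants 6 and 7 had 8.85 and 8.84 rpm and plant 8 had 26.7 rpm. The difference in *M. arvensis* was -1.89 ± 0.47, adjusted p 0.00547. The call was lost without *M. arvensis* plant 12, 13 or 15 or *M. moricandioides* plant 6, 8 or 12, with adjusted p up to 0.0189.

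GSTU10 ran the other way, with 24.7, 29.0, 76.4 and 66.6 rpm in *M. arvensis*, against 14.2, 15.8, 13.5 and 26.7 rpm in *M. moricandioides*. The close pair of *M. arvensis* plants 13 and 15 was high, and plant 9 lay below *M. moricandioides* plant 15. The difference was 1.29 ± 0.32, adjusted p 0.00544, and it was lost without *M. arvensis* plant 13 or 15 or *M. moricandioides* plant 6, 8 or 12, with adjusted p up to 0.0201. The *M. suffruticosa* plants, at 49.4, 46.2 and 29.8 rpm, all lay above *M. moricandioides*, yet the difference of 1.16 ± 0.34 was not called (adjusted p 0.0201).

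GSTU7, annotated as induced by salicylic acid, was higher in *M. suffruticosa*. It had 263, 272 and 135 rpm in *M. suffruticosa* and 189.8, 136, 161 and 134 rpm in *M. arvensis*, against 73.0, 82.6, 82.4 and 83.4 rpm in *M. moricandioides*. Every plant of both intermediates lay above every *M. moricandioides* plant. The *M. suffruticosa* difference of 1.39 ± 0.26 had an adjusted p of 0.00159 and was called whichever single plant was left out, but not with the close pairs summed (1.24, adjusted p 0.0134). That of *M. arvensis*, 0.86 ± 0.24, missed the threshold (adjusted p 0.0101). *M. arvensis* differed from *M. suffruticosa* by -0.52 ± 0.25, which was not called (adjusted p 0.131).

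GSTU18 had 221, 222 and 226 rpm in *M. suffruticosa*, against 90.2, 68.2, 116 and 91.5 rpm in *M. moricandioides*. The *M. arvensis* plants had 104, 64.1, 60.9 and 56.4 rpm, with plant 9 apart from the other 3. *M. arvensis* was lower than *M. suffruticosa* by -1.63 ± 0.31, adjusted p 0.00189, in all 11 fits with 1 plant left out, but not with the close pairs summed (-1.51, adjusted p 0.0194). The difference of *M. suffruticosa* from *M. moricandioides*, 1.20 ± 0.30, lay at the threshold with an adjusted p of 0.00999 and was called in 2 of those 11 fits, the ones without *M. moricandioides* plant 12 or *M. arvensis* plant 9 (adjusted p up to 0.0308 in the others). Without *M. arvensis* plant 9, the *M. arvensis* level of GSTU18 was also called lower than that of *M. moricandioides*, by -0.85 at an adjusted p of 0.00436, against -0.42 and 0.236 with it.

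GSTU9 was the only member called lower in *M. suffruticosa* than in *M. moricandioides*, on few reads. The *M. suffruticosa* plants had 0.779, 0.283 and 0.364 rpm, which are 11, 4 and 4 reads, against 1.94, 3.02, 2.97 and 2.49 rpm in *M. moricandioides*, 28 to 41 reads. The *M. arvensis* plants had 2.27, 1.34, 1.49 and 1.47 rpm, above every *M. suffruticosa* plant, with plant 9 inside the *M. moricandioides* range. The *M. suffruticosa* difference from *M. moricandioides* was -2.49 ± 0.45, adjusted p 0.0014. That call was lost without *M. suffruticosa* plant 7 (adjusted p 0.0106).

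GSTU24, GSTU23 and GSTU28, which were among the 6 members of highest mean rpm, were not called. GSTU24 had 231 to 507 rpm in *M. arvensis*, 375 to 543 rpm in *M. suffruticosa* and 245 to 404 rpm in *M. moricandioides*, with log2 differences from *M. moricandioides* of 0.18 ± 0.29 and 0.37 ± 0.31. GSTU23 had 197 to 329 rpm in *M. arvensis*, 317 to 338 rpm in *M. suffruticosa* and 149.7 to 303 rpm in *M. moricandioides*, with differences of 0.06 ± 0.26 and 0.41 ± 0.28, and all *M. suffruticosa* plants lay above *M. moricandioides*. GSTU28 had 82.3 to 230.2 rpm in *M. arvensis*, 325 to 402 rpm in *M. suffruticosa* and 199 to 327 rpm in *M. moricandioides*. Its differences in *M. arvensis* were not called, -0.86 ± 0.33 against *M. moricandioides* (adjusted p 0.0443) and -1.26 ± 0.35 against *M. suffruticosa* (0.0149). Without *M. arvensis* plant 9, which had the highest value of its species, they were -1.36 (0.000588) and -1.75 (0.000352). GSTU8 and GSTU12 were not called either.

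GSTZ2, the zeta locus with reads, had 86.2, 101, 112 and 97.9 rpm in *M. arvensis* and 109, 104 and 61.7 rpm in *M. suffruticosa*, against 48.1, 37.0, 66.9 and 25.5 rpm in *M. moricandioides*. *M. arvensis* did not overlap with *M. moricandioides*, and *M. suffruticosa* did through plant 8. The *M. arvensis* difference of 1.03 ± 0.26 was called (adjusted p 0.00637), in 4 of 11 fits with 1 plant left out, those without *M. moricandioides* plant 12 or any of the 3 *M. suffruticosa* plants, with adjusted p up to 0.0254 in the others. The *M. suffruticosa* difference of 0.96 ± 0.28 was of like size and not called (0.0203).

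GSTT1, the theta locus with reads, was the only member called higher in *M. arvensis* than in *M. suffruticosa*. It had 79.0, 72.9, 82.0 and 73.2 rpm in *M. arvensis*, against 54.8, 47.1 and 42.1 rpm in *M. suffruticosa*, and *M. moricandioides* lay between at 55.9 to 59.7 rpm. The species did not overlap in rpm, which is scaled to counted reads alone. The difference of 0.65 ± 0.16 (adjusted p 0.00825) was called in 1 of 11 fits with 1 plant left out, that without *M. arvensis* plant 15, with adjusted p up to 0.0445 in the others. Against *M. moricandioides*, neither *M. arvensis* (0.32 ± 0.14, adjusted p 0.0874) nor *M. suffruticosa* (-0.33 ± 0.16, 0.125) was called.

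AT1G65820, annotated as a putative microsomal transferase, had 44.3, 42.1 and 35.0 rpm in *M. suffruticosa*, against 13.1, 11.8, 14.0 and 21.3 rpm in *M. moricandioides*. In *M. arvensis*, plant 9 had 11.7 rpm and the other plants 25.2, 33.3 and 30.7 rpm. The *M. suffruticosa* difference of 1.34 ± 0.26, adjusted p 0.00216, was lost without *M. suffruticosa* plant 6 (0.0114).

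Among the members without a class, AT4G19880 was called higher in both comparisons with *M. moricandioides*, which share those plants. The table annotates it as a chloroplast protein of the cadmium response. It had 50.2, 48.4, 60.3 and 59.2 rpm in *M. arvensis* and 56.4, 58.0 and 42.8 rpm in *M. suffruticosa*, against 17.6, 18.4, 13.6 and 17.96 rpm in *M. moricandioides*. All 7 plants of the intermediates lay above all 4 *M. moricandioides* plants. The *M. arvensis* log2 fold change was 1.57 ± 0.14 (adjusted p 4.64e-06), and the *M. suffruticosa* log2 fold change was 1.56 ± 0.14 (2.15e-05). Both calls held whichever single plant was left out and with the close pairs summed, and the intermediates differed by 0.02 ± 0.14.

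AT5G44990, whose best match in the annotation is AT4G19880, moved the other way in *M. arvensis*. It had 0.157, 0.713, 0.373 and 0.603 rpm in *M. arvensis* (2 to 8 reads), against 1.81, 3.10, 2.17 and 2.22 rpm in *M. moricandioides* (26 to 38 reads). The *M. suffruticosa* plants had 2.41, 2.33 and 1.82 rpm, within the *M. moricandioides* range. *M. arvensis* was lower than *M. moricandioides* by -2.47 ± 0.36 (adjusted p 0.00018) and lower than *M. suffruticosa* by -2.31 ± 0.38 (0.000816), without overlap and whichever plant was left out. With the close pairs summed, the call against *M. moricandioides* held (0.00156) and that against *M. suffruticosa* was lost (0.0104). AT5G44000, with the same best match, was not called.

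AT1G77290, annotated to pentachlorophenol breakdown, had 5.24, 8.74, 7.23 and 8.28 rpm in *M. arvensis*, against 3.33, 4.08, 2.83 and 3.30 rpm in *M. moricandioides*. The groups did not overlap, and the difference of 0.99 ± 0.19 (adjusted p 0.00103) held whichever single plant was left out. The *M. suffruticosa* plants had 4.46, 5.02 and 5.64 rpm, also above every *M. moricandioides* plant. That difference of 0.51 ± 0.20 was not called (adjusted p 0.0716), nor was that between the intermediates (0.48 ± 0.20, 0.0826). AT1G19550, annotated with glutathione-dependent ascorbate recycling, had 426, 484 and 299.8 rpm in *M. suffruticosa*, against 168, 127, 222 and 139 rpm in *M. moricandioides*. It rose by 1.20 ± 0.23, adjusted p 0.00183, a call lost without *M. suffruticosa* plant 7 (0.0118). The *M. arvensis* plants had 222, 195, 279.5 and 263 rpm, a difference from *M. moricandioides* of 0.41 ± 0.21 (adjusted p 0.125). A neighbouring locus was among those the selection left out, so whether AT1G19550 alone holds the reads of its neighbours was not examined. AT5G42150 and both EF1B members, AT1G30230 and AT5G12110, were not called in any comparison.

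**Figure D4:**
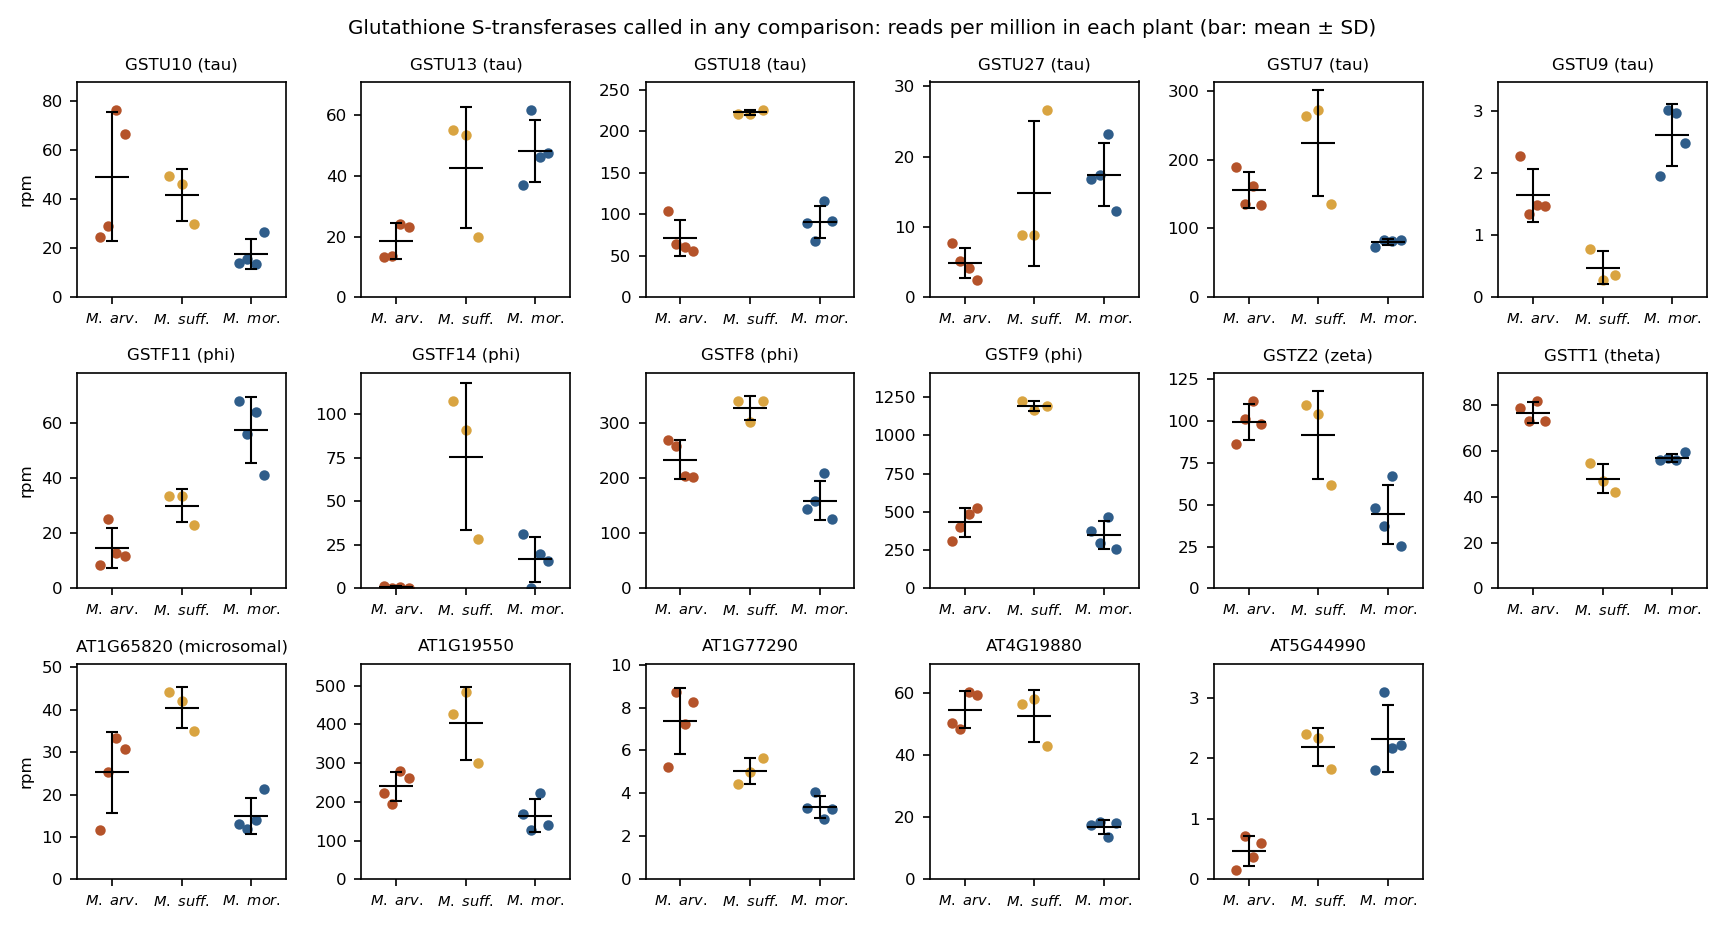
Rpm in each plant for the 17 members called in at least 1 comparison, on linear axes from 0, with *M. arvensis*, *M. suffruticosa* and *M. moricandioides* from left to right and the mean and SD of each as black bars. GSTF9 and GSTU18 are high in *M. suffruticosa* alone, AT4G19880 is high in both intermediates, and GSTF11 and GSTU13 are low in *M. arvensis* against *M. moricandioides*.

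The pathways that transferases serve were read from lists of 53 further genes. Of the 4 genes of tyrosine breakdown beside the zeta transferases, 3 were higher in *M. arvensis* and 2 in *M. suffruticosa* than in *M. moricandioides*, and none was lower. Over all transcripts, 18.2% were called higher in *M. arvensis* and 10.1% in *M. suffruticosa*. Counts from lists this small were described and not tested. The tyrosine aminotransferase AT5G53970, which opens the pathway, had 103, 83.5, 44.2 and 43.6 rpm in *M. arvensis* and 134, 147 and 96.3 rpm in *M. suffruticosa*, against 10.7 to 17.0 rpm in *M. moricandioides*. PDS1, 4-hydroxyphenylpyruvate dioxygenase, had 310.2, 285, 327 and 355 rpm in *M. arvensis* and 126, 122 and 143 rpm in *M. suffruticosa*, against 38.9, 81.3, 45.2 and 38.8 rpm in *M. moricandioides*. All plants of both intermediates lay above *M. moricandioides* for these 2 genes.

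Their log2 fold changes were 2.25 ± 0.35 and 3.09 ± 0.37 for AT5G53970 in *M. arvensis* and *M. suffruticosa*, and 2.54 ± 0.23 and 1.30 ± 0.23 for PDS1, with edgeR adjusted p of 0.00135 or less. HGO, homogentisate dioxygenase, rose in *M. arvensis* by 2.03 ± 0.41 (adjusted p 0.00143) and differed by 0.88 ± 0.42 in *M. suffruticosa* (0.129). These 5 calls held whichever single plant was left out. AT1G12050, the fumarylacetoacetase that follows the zeta step, showed differences of -0.16 ± 0.15 and -0.23 ± 0.16 and was not called.

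Around the glutathione step of glucosinolate synthesis, 6 genes were listed, AT4G30530 and AT4G30550 were at 0, and 1 of the other 4 was called higher in each intermediate. CYP83B1, which makes the oxidised intermediate that glutathione meets in indole glucosinolate synthesis, had 16.2, 27.6, 103 and 127 rpm in *M. arvensis* and 202, 190.3 and 152 rpm in *M. suffruticosa*, against 7.01 to 10.6 rpm in *M. moricandioides*. *M. arvensis* was higher by 2.75 ± 0.48 (adjusted p 0.000582) and *M. suffruticosa* by 4.30 ± 0.52 (0.000117), whichever plant was left out. Its aliphatic counterpart CYP83A1 and the C-S lyase SUR1 were not called. UGT74B1, the glucosyltransferase of the pathway, was lower in *M. arvensis* than in *M. suffruticosa* by -1.11 ± 0.24 (adjusted p 0.0044), a call lost without *M. arvensis* plant 13 or any of the 3 *M. suffruticosa* plants (up to 0.0193). In *M. suffruticosa*, SUR1 (1.17 ± 0.37, adjusted p 0.0285) and UGT74B1 (0.80 ± 0.24, 0.0230) lay above every *M. moricandioides* plant and were not called, while CYP83A1 overlapped.

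Of 5 genes of the indole and camalexin pathway, CYP71A13 and PEN2 were listed at 0, PEN3 was not called, and 2 were higher in each intermediate. The shares called higher over all transcripts were 18.2% in *M. arvensis* and 10.1% in *M. suffruticosa*. PAD3, the last enzyme of camalexin synthesis, had 169, 153, 152 and 168 rpm in *M. arvensis* and 82.9, 78.8 and 28.1 rpm in *M. suffruticosa*, against 31.0, 17.3, 26.9 and 17.3 rpm in *M. moricandioides*. *M. suffruticosa* plant 8 lay inside the *M. moricandioides* range. The *M. arvensis* difference was 2.69 ± 0.32 (adjusted p 4.21e-05) and the *M. suffruticosa* difference 1.36 ± 0.32 (0.00737), the second called in 2 of 11 fits with 1 plant left out, those without *M. arvensis* plant 9 or *M. suffruticosa* plant 8 (adjusted p up to 0.0419 in the others). CYP81F2, which modifies indole glucosinolates, rose by 2.35 ± 0.34 in *M. arvensis* (adjusted p 0.000152) and, for *M. suffruticosa*, by 1.62 ± 0.35 (0.00408), the second lost without *M. suffruticosa* plant 6 or 7 or *M. moricandioides* plant 6 or 15 (up to 0.0178). Of 4 anthocyanin genes, LDOX was at 0, UF3GT had too few reads to test and DFR was not called. PAP1, the regulator of anthocyanin genes, had 0 to 0.446 rpm in *M. arvensis* and 0.778 to 2.09 rpm in *M. suffruticosa*, against 3.55 to 7.50 rpm in *M. moricandioides*. The *M. arvensis* level was lower by -5.27 ± 0.63 (adjusted p 4.46e-05) and the *M. suffruticosa* level by -2.23 ± 0.54 (0.00748), the second lost without *M. suffruticosa* plant 6 or 7 or *M. moricandioides* plant 6, 8 or 15 (up to 0.0432).

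**Figure D5:**
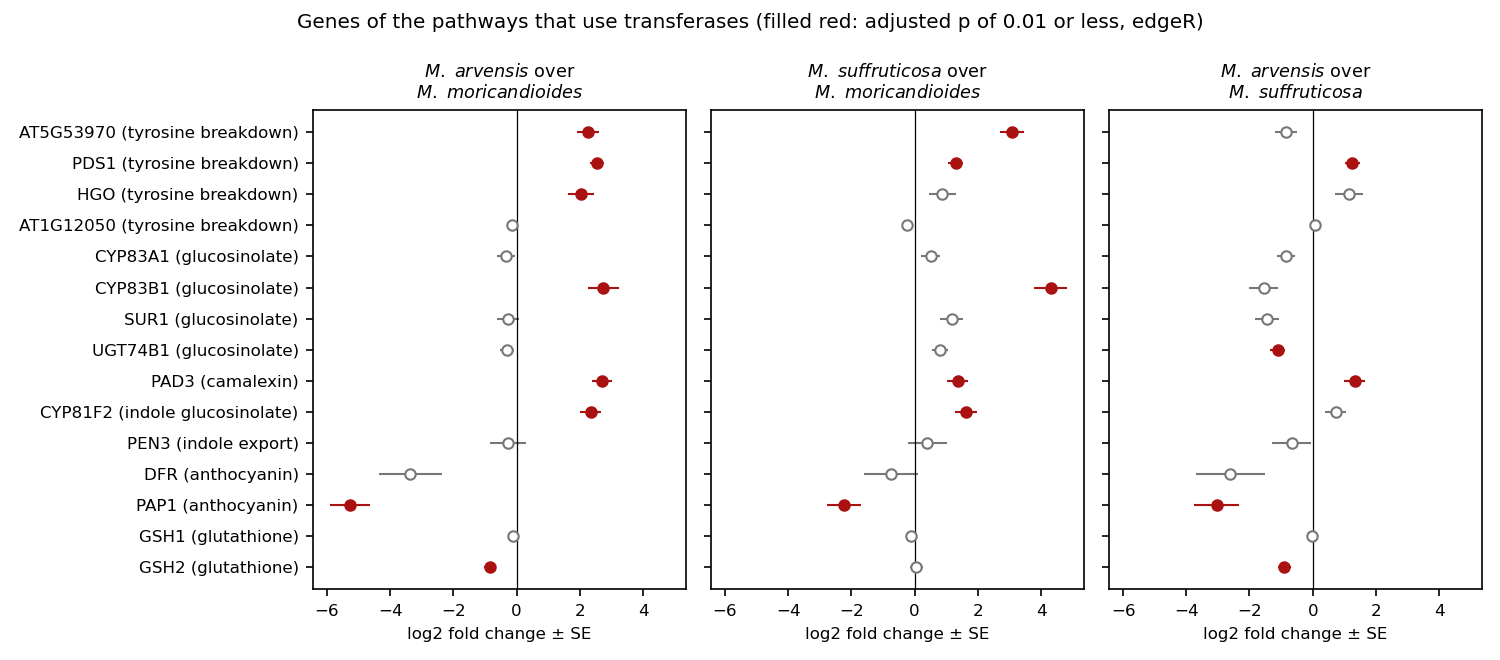
Log2 fold change with its standard error for 15 genes of the pathways that use transferases, in 3 panels for the 3 comparisons, with called genes filled in red. CYP83B1, PAD3, CYP81F2, AT5G53970 and PDS1 are filled to the right of 0 in both comparisons with *M. moricandioides*, and PAP1 to the left.

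Of the 2 genes of glutathione synthesis, 1 was called lower in *M. arvensis*, where 16.7% of all transcripts were. GSH1, which makes the dipeptide precursor of glutathione, was not called, with differences of -0.12 ± 0.13 for *M. arvensis* and -0.11 ± 0.14 for *M. suffruticosa*. GSH2, glutathione synthetase, had 49.0, 88.5, 89.9 and 87.1 rpm in *M. arvensis*, against 167, 108, 147 and 88.4 rpm in *M. moricandioides*. It was lower in *M. arvensis* by -0.85 ± 0.20 (adjusted p 0.00406), a call that held in 7 of 11 fits and was lost without *M. arvensis* plant 9 or 15 or *M. moricandioides* plant 6 or 12 (up to 0.0139). Of 10 glutathione reductases and peroxidases, 2 were at 0 and 8 were tested. In *M. arvensis*, 1 was called higher and 1 lower, beside 18.2% and 16.7% of all transcripts. In *M. suffruticosa*, 0 were called higher and 1 lower, beside 10.1% and 8.82%. The peroxidase GPX6 was called higher in *M. arvensis* (1.04 ± 0.27, adjusted p 0.00669), lost without *M. arvensis* plant 9 or 12, *M. suffruticosa* plant 7 or *M. moricandioides* plant 6, 8 or 15 (up to 0.0257). The plastid reductase GR was lower (-0.90 ± 0.23, 0.00567), lost without *M. arvensis* plant 12, 13 or 15 or *M. moricandioides* plant 6, 8 or 15 (up to 0.0202). In *M. suffruticosa*, GPX6 differed by 1.11 ± 0.29 without overlap and was not called (0.011). GPX4 was called there, lower by -0.81 ± 0.17 (0.00392), lost without any of the 3 *M. suffruticosa* plants (up to 0.024).

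Of 5 genes of glutathione breakdown, GGT2 was at 0, AT5G26220 had 17 reads, all in *M. arvensis*, and GGT1 was not called. Of the 3 tested, 2 were called higher in *M. arvensis* (18.2% of all transcripts). In either direction, 0 were called in *M. suffruticosa* (18.9% of all transcripts). There edgeR gave 2 of the 3 tested an unadjusted p under 0.05, in opposite directions, 1.60 ± 0.49 for GGT1 and -0.45 ± 0.19 for GGT4. GGT4, which removes the glutamyl group from conjugates in the vacuole, differed by 0.65 ± 0.17 (adjusted p 0.00823, called in 1 of 11 fits with 1 plant left out, that without *M. suffruticosa* plant 8). OXP1, oxoprolinase, differed by 0.83 ± 0.19 (0.00365, lost without *M. arvensis* plant 15 or *M. moricandioides* plant 6, 8 or 15, up to 0.0162). Of 7 transport genes, 2 were at 0 and 5 were tested. Of these, 2 were lower in *M. arvensis* (16.7% of all transcripts) and 3 in *M. suffruticosa* (8.82%). CLT2, a plastid thiol transporter, had 17.1, 15.3, 25.4 and 19.4 rpm in *M. arvensis* and 20.0, 22.1 and 19.3 rpm in *M. suffruticosa*, against 47.1, 50.4, 37.2 and 46.2 rpm in *M. moricandioides*. The differences of -1.35 ± 0.14 (adjusted p 1.91e-05) and -1.21 ± 0.16 (0.000167) were called whichever plant was left out, and neither intermediate overlapped with *M. moricandioides*. OPT4, an oligopeptide transporter, was lower in *M. suffruticosa* by -3.26 ± 0.36 (adjusted p 6.43e-05) and differed by -0.31 ± 0.28 in *M. arvensis*. The other calls were CLT3 in *M. arvensis* (-1.05 ± 0.12, 3.59e-05) and MRP3, a vacuolar conjugate pump, in *M. suffruticosa* (-1.34 ± 0.34, 0.00935), which was called in 3 of 11 fits with 1 plant left out, those without *M. arvensis* plant 9 or 15 or *M. moricandioides* plant 12 (up to 0.0378 in the others).

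Of 7 detoxification regulators and partners, 3 were at 0 and 4 were tested. In *M. arvensis*, 1 was called higher and 1 lower, beside 18.2% and 16.7% of all transcripts. In *M. suffruticosa*, 0 were called higher and 1 lower, beside 10.1% and 8.82%. TGA6, a bZIP factor that binds transferase promoters, was higher in *M. arvensis* by 0.63 ± 0.15 (adjusted p 0.00427), lost without *M. arvensis* plant 13 or 15 or *M. moricandioides* plant 8, 12 or 15 (up to 0.0179). OPR1, an oxophytodienoate reductase, had 17.3 to 38.6 rpm in *M. arvensis* and 3.73 to 12.4 rpm in *M. suffruticosa*, against 25.6 to 166 rpm in *M. moricandioides*. It was lower in *M. suffruticosa* by -3.38 ± 0.58 (0.00107) whichever single plant was left out, and in *M. arvensis* by -1.94 ± 0.49 (0.00568), lost without *M. arvensis* plant 9, 13 or 15 or *M. moricandioides* plant 6 or 12 (up to 0.0179).

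Of 3 further transferases that the description did not select, 1 was at 0 and the others were of the lambda class. GSTL1 had 97.9, 56.0, 88.8 and 87.6 rpm in *M. arvensis* and 61.3, 65.3 and 59.6 rpm in *M. suffruticosa*, against 22.3, 10.0, 10.6 and 18.8 rpm in *M. moricandioides*, the locus next to GSTL3, which was at 0. The *M. arvensis* level was higher by 2.32 ± 0.29 (adjusted p 5.81e-05) and the *M. suffruticosa* level by 1.93 ± 0.30 (0.000537), whichever plant was left out. GSTL2 was higher in *M. arvensis* by 0.83 ± 0.18 (0.00266), lost without *M. moricandioides* plant 12 (0.0105), and differed by 0.32 ± 0.20 in *M. suffruticosa*.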

How the data were processed

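The authors isolated RNA from mature leaves, sequenced single-end 100 bp reads and mapped them with BLAT, as translated sequence, to a reduced set of *A. thaliana* coding sequences (TAIR10). They deposited raw counts per locus and rpm, which are counts divided by the library total, and rpm recomputed from the counts matched the deposited values. Columns of the authors' own comparisons, fold changes and p-values, were not used. Counts of all 33602 models were filtered with edgeR's filterByExpr (minimum count 10), scaled by TMM and fitted over the 11 libraries with 1 term per species (edgeR 4.0.16, limma 3.58.1, R 4.3.3). The quasi-likelihood test was used with Benjamini-Hochberg adjustment over 15570 transcripts, and fold changes follow TMM scaling while rpm does not. Overlap between plants was read from rpm and may differ after TMM scaling. The script was tested on simulated data. Alternatives were other scalings and filters, DESeq2 1.42.0, limma-voom, pairwise fits, an adjusted p of 0.05, a replicate block, each plant left out, and, chosen after seeing the data, close pairs summed.

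Members and gene lists were chosen with earlier results of these data known. Named were members called in any comparison, the 6 of highest mean rpm, members with a textbook role, up to 4 called genes of each list by size, and every gene of lists of 6 or fewer. Neighbouring loci were those with locus numbers less than 60 apart. A value of 0 allows up to 3 reads, or 0.202 to 0.273 rpm by library, for counting error only. Reads carried no molecular identifiers. The labels do not say whether plants shared a batch, and p-values measure the spread between these plants. Gene names are those of the deposited annotation. Sequences and coordinates were not analysed here.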

Additional observations from a re-analysis of the deposited data

Results flagged for a closer look

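The fold changes of the intermediates against *M. moricandioides* differed from each other, by the edgeR test of *M. arvensis* against *M. suffruticosa*, for 6 members. This was 21.4% of the 28 tested, near the 19.3% called over all transcripts. The log2 differences were -6.68 for GSTF14, -2.31 for AT5G44990, -1.63 for GSTU18, -1.54 for GSTF9, -1.27 for GSTU13 and 0.65 for GSTT1. Among the pathway genes they were -0.90 for GSH2, 1.10 for GGT4, -0.72 for CLT3, 2.95 for OPT4, -1.11 for UGT74B1, 1.33 for PAD3, -3.04 for PAP1, 1.25 for PDS1 and 0.73 for TGA6. With 1 plant left out, the differences for GSTF14, AT5G44990, GSTU18, GSTF9, CLT3 and OPT4 were called in all 11 fits. PAD3 was called in 0 of 11 (adjusted p 0.0101 to 0.0223), GSTT1 in 1 (up to 0.0445), GSH2 in 4 (up to 0.0279), and GSTU13 and PAP1 in 5 each (up to 0.0333 and 0.0269). UGT74B1 and TGA6 were called in 7 each (up to 0.0193 and 0.0236), PDS1 in 9 (lost without *M. suffruticosa* plant 6 or 7, up to 0.0156) and GGT4 in 10 (lost without *M. suffruticosa* plant 7, 0.0101). With the close pairs summed, GSTF9 alone of the 6 members was called, where 6.51% of all transcripts were.

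Single plants lay far from the rest of their species in 8 of 146 groups of 4 plants, where chance gives about 1 in 20. Each gap was read from rpm, and which plants would stand out after TMM scaling was not tested. Among *M. arvensis* plants, TMM scaling used 0.834 for plant 9 and 1.04, 1.17 and 1.16 for plants 12, 13 and 15. Among *M. moricandioides* plants it used 0.906 for plant 12 and 0.992, 1.02 and 0.915 for plants 6, 8 and 15. Division by a smaller factor raises a value, so the low values listed for plants 9 and 12 may lie nearer the rest after scaling. *M. arvensis* plant 9 had the highest GSTU18 (104 rpm, the next 64.1) and GSTU9 (2.27 rpm, the next 1.49) of its species. It also had the lowest AT5G12110 (112 rpm, the next 170.5) and GSH2 (49.0 rpm, the next 87.1). *M. moricandioides* plant 12 was lowest for AT4G19880 (13.6 rpm, the next 17.6) and CLT3 (22.1 rpm, the next 29.5), plant 6 was lowest for GSTU7 (73.0 rpm, the next 82.4), and plant 8 was highest for PDS1 (81.3 rpm, the next 45.2).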

How the results depend on the processing

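Counts of members called, 9 in *M. arvensis* and 8 in *M. suffruticosa* against *M. moricandioides* and 6 between the intermediates, were 12, 11 and 13 with DESeq2 (41.4%, 27.1% and 27.9% of all transcripts), 13, 13 and 15 at an adjusted p of 0.05 (49.8%, 34.2% and 34.7%), and 5, 3 and 1 with the close pairs summed (25.1%, 9.01% and 6.51%), an alternative chosen after seeing the data. Other scalings and filters, limma-voom and pairwise fits gave 8 to 10, 6 to 9 and 4 to 7. Over all transcripts these settings called 29.1% to 38.2%, 15.4% to 20.8% and 15.6% to 22.0%. Leaving out each plant gave 5 to 12, 4 to 10 and 4 to 9. Over all transcripts those fits called 28.6% to 35.4%, 10.3% to 22.3% and 9.81% to 20.8%. The replicate block on plant numbers gave 2, 0 and 0 (5.14%, 0.938% and 0.00% of all transcripts), keeping GSTF11 (-1.84, adjusted p 0.00613) and AT4G19880 (1.51, 0.00839) in *M. arvensis*. Deviations of same-numbered plants from their species means had correlations of -0.021 to 0.027, and those of differently numbered plants -0.14 to 0.13. The labels do not say what the plant numbers stand for, and a shared batch was not tested. The theta sum in *M. moricandioides* was 59.9 as TMM-scaled CPM.

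Directions turned only among differences that were not called; ranges are those over fits with 1 plant left out. In *M. arvensis* against *M. moricandioides*, GSTU24 was -0.25 with the replicate block and -0.15 (without *M. arvensis* plant 9) to 0.37, and GSTU23 -0.18 with the block and -0.25 to 0.22, below 0 without *M. moricandioides* plant 8 or 15 or *M. arvensis* plant 9 (-0.05, -0.12 and -0.25). In *M. suffruticosa* against *M. moricandioides*, GSTU13 ran over -0.49 to 0.064 (highest without *M. suffruticosa* plant 8) and GSTU27 over -1.09 to 0.0025 (plant 7). Between the intermediates, GSTU24 ran over -0.51 to 0.033, above 0 without *M. arvensis* plant 12 (0.0015) or *M. suffruticosa* plant 8. GSTU10 was -0.45 with the block and -0.10 (without *M. arvensis* plant 13) to 0.31, and -0.03 without *M. suffruticosa* plant 8. GSTZ2 ran over -0.11 (without *M. suffruticosa* plant 8) to 0.22. AT4G19880 was -0.0062 with a minimum of 10 rpm and -0.078 (without *M. suffruticosa* plant 8) to 0.071, and -0.06 without *M. arvensis* plant 9. The cause of these changes was not tested.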

Other observations

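A pair of members outside the naming rule, chosen after their values were seen, had a low value in *M. arvensis* plant 9 and higher values in the other *M. arvensis* plants. GSTU12 had 3.05 rpm in plant 9 and 16.6, 65.9 and 61.6 rpm in plants 12, 13 and 15, against 2.00 to 7.44 rpm in *M. suffruticosa* and 5.79 to 10.97 rpm in *M. moricandioides*. GSTF3 had 7.36 rpm in plant 9 and 38.1, 75.9 and 64.7 rpm in the other *M. arvensis* plants, against 8.27 to 12.5 rpm in *M. suffruticosa* and 5.55 to 21.1 rpm in *M. moricandioides*. With all plants neither was called in *M. arvensis* against *M. moricandioides* (2.05, edgeR adjusted p 0.0203, and 1.72, 0.0222). Without plant 9 both were called (2.40, 0.00108, and 2.03, 0.00243).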
